A study of Schizosaccharomyces pombe with 384 samples.

Results

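The 7 genes described here encode the P proteins of the ribosomal stalk of the fission yeast Schizosaccharomyces pombe. They are rpp0, the P1 genes rpp101, rpp102 and rpp103, and the P2 genes rpp201, rpp202 and rpp203, and they were taken by gene name from a table of 7259 genes. Transcript ends were counted by 3′ mRNA sequencing, in which each transcript gives reads from its 3′ end only, so that levels in CPM (read counts scaled for library size) do not grow with transcript length. The table holds 94 haploid knockout strains of the Bioneer collection with 4 libraries each and 8 wild-type libraries, all grown in YES, a rich yeast extract and glucose medium, at 32 ºC in 96-deepwell plates. Each knockout strain carries the deletion of 1 gene and is compared with the same wild-type libraries, which come from wells A1 and A2. The study design counts 2 biological wild-type replicates, 6 of the 8 wild-type libraries carry the words for a knock-out strain in their description field. The study calls the libraries of a knockout strain biological replicates, and the labels do not say whether they came from separate colonies. The p-values below measure the spread between these libraries.

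The stalk is a flexible arm on the large ribosomal subunit. P0, also called uL10, binds the ribosomal RNA and carries dimers of P1 and P2, and the acidic tails of all 3 kinds of protein recruit the translation factors that hydrolyse GTP, among them the elongation factors eEF1A and eEF2. In yeasts the P1 and P2 proteins are encoded by several paralogous genes each, whereas P0 has 1 gene. The reading frames of the 7 genes end alike. The last 39 coding bases before each stop codon are printed here because they encode the tail that the factors bind, and capitals mark the 26 bases that all 7 genes share.
rpp0: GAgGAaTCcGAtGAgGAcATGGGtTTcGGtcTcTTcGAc
rpp101: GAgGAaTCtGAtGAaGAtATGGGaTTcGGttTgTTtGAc
rpp102: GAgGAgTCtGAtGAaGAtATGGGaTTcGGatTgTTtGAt
rpp103: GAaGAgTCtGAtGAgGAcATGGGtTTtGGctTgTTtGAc
rpp201: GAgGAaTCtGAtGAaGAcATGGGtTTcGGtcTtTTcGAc
rpp202: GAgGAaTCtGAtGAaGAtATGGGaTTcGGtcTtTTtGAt
rpp203: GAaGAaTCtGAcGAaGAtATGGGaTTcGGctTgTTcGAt
The 13 residues encoded by these bases were identical in all 7 predicted proteins. Over their whole length the proteins fell into their families, with 84.5 to 92.8% identity among the P1 proteins, 77.9 to 90.9% among the P2 proteins and 32.5 to 44.0% between a P1 and a P2 protein. The P2 protein of rpp202 was the most distant of its family, at 78.8% identity to that of rpp201 and 77.9% to that of rpp203, which were 90.9% identical to each other. The longest run of bases shared by any pair of the 7 messenger RNAs was 38 bases, shorter than the reads of 75 bases.

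The promoters differed more than the tails. The 100 bases before each annotated mRNA start (RefSeq annotation, build ASM294v3) are printed because the 7 genes differ in the ribosomal protein gene boxes they hold. Capitals mark matches to the HomolD box (CAGTCACA) or the HomolE box (ACCCTACCC) on either strand, which are known elements of fission yeast ribosomal protein genes.
rpp0, III:1981916-1982015, minus strand: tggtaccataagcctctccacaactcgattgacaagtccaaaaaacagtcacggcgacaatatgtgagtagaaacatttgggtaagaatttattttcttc
rpp101, I:2700332-2700431, plus strand: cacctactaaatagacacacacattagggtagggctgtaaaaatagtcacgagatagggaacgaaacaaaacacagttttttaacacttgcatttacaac
rpp102, II:4009397-4009496, minus strand: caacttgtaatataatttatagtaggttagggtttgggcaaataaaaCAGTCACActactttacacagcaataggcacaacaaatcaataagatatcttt
rpp103, III:2408327-2408426, minus strand: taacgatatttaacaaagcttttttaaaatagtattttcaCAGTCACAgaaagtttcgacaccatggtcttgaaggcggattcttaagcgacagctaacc
rpp201, II:3643061-3643160, plus strand: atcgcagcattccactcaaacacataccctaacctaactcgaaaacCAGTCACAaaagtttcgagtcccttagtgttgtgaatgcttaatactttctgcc
rpp202, II:2128468-2128567, minus strand: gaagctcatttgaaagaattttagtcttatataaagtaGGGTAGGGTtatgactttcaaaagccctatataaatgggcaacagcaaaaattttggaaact
rpp203, I:3868989-3869088, plus strand: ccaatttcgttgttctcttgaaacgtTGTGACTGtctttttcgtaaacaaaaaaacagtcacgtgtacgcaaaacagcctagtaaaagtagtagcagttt
HomolD was found in the 250 bases before rpp102, rpp103, rpp201 and rpp203, starting 53, 60, 54 and 74 bases before the mRNA start. HomolE was found only before rpp202, starting 62 bases before its mRNA start, and rpp0 and rpp101 held an exact match to neither box. Of all 5112 promoters of that length, 2.62% held HomolD and 1.27% held HomolE, against 50 and 19 of the 76 promoters of other large-subunit genes (rpl) and 34 and 21 of the 55 promoters of small-subunit genes (rps). A shorter core, AGTCAC, was searched after these sequences had been seen, on both strands of the last 100 bases. It was present before every P protein gene except rpp202 and in 6.4% of all promoters, 94.7% of rpl promoters and 90.9% of rps promoters. No shorter form of HomolE was searched, although gggtaggg, all but the last base of its other strand, stands before rpp101. Among the 17 other ribosomal protein genes with HomolE and no HomolD, 0 were called higher and 1 to 7 lower in each of the 8 strains with the highest rpp202. Their median log2 differences were -0.45 to 0.12. Over all transcripts 1.88% to 11.9% were called higher and 2.46% to 9.66% lower in these strains. Whether either box plays a part in the level of rpp202 was not tested. The letters TATAAA, searched like the core, were present before rpp102 and rpp202. They stood in 18.8% of all promoters, 6.58% of rpl promoters and 7.27% of rps promoters.

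Read totals on genes ran from 1337620 to 2659644 per library, and 1 read was worth 0.298 to 0.848 CPM. The P protein genes were far above that limit, with 3716 or more reads for each gene in each wild-type library. The CPM values carried a further scaling per library, as their sum ran from 689484 (rpl1801, replicate 1) to 1302018 (pmp1, replicate 4). The sum was 742382 to 797715 in the strain labelled rpl3201 and 944943 to 1223029 in wild type. Levels by plain read totals were not compared. The deposited table had lost its decimal points, which were restored before any comparison, and of the 2688 values of the 7 genes only 2 changed when they were restored without using the other libraries of the strain. As a check of the labels, the transcript of the deleted gene lay below every wild-type library in all 4 libraries for 27 strains, 14 of them among the 19 that lack a ribosomal protein gene. Deletion cassettes replace the reading frame, so a 3′ tag can lie outside the deleted part and then checks nothing. Strains whose deleted gene was not lower are called here by their label.

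In wild type rpp0 was the most abundant of the 7 transcripts, and rpp102 and rpp201 led the P1 and the P2 genes. rpp0 ranged from 4659 to 7469 CPM with a median of 7094, rank 26 of all 7259 genes by its mean. Among the P1 genes rpp102 had the highest level, at 4296 to 7301 CPM with a median of 5409, against 2357 to 3891 CPM for rpp101 and 2080 to 3855 CPM for rpp103. Among the P2 genes rpp201 led, at 3636 to 5509 CPM with a median of 4819. The lowest of the 7 levels was that of rpp202, 2198 to 3027 CPM with a median of 2355, and rpp203 lay between 2138 and 3790 CPM. The order rpp0, rpp102, rpp201, rpp101, rpp103 held in each of the 8 libraries although the ranges of neighbours overlapped. rpp103 was above rpp203 in 5 of 8 libraries and rpp203 above rpp202 in 7 of 8, so the lower end of the order was less fixed. Libraries that share a replicate number moved together. The highest library was 1 of replicate 3 for each of the 7 genes, and the lowest was 1 of replicate 4 for each gene except rpp202. rpp0, for example, stood at 7469 and 7107 CPM in the replicate-3 libraries and at 4659 and 4686 CPM in those of replicate 4.

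**Figure D1:**
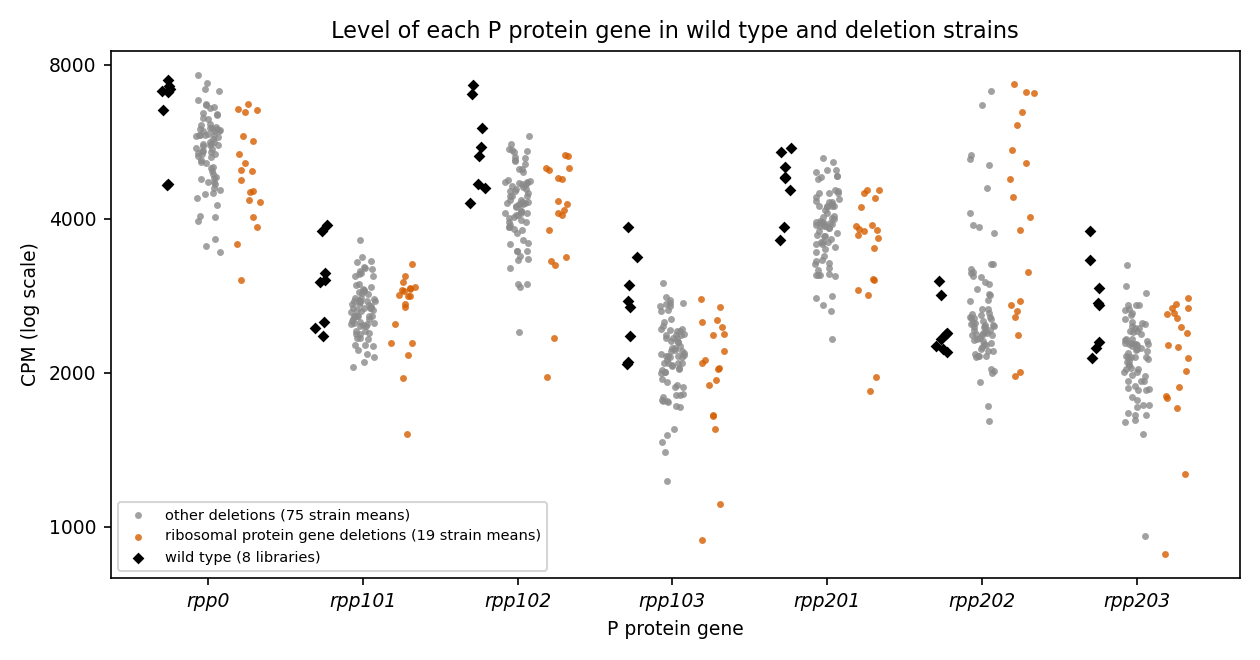
Level of each P protein gene in CPM on a log scale. Diamonds are the 8 wild-type libraries, grey points the means of the 75 strains that lack another gene and orange points the means of the 19 strains that lack a ribosomal protein gene, with rpp102 left out in its own deletion. rpp202 alone has strain means far above the wild-type libraries, up to 7346 CPM, while the lowest means are those of rpp203 at 885 CPM and rpp103 at 943 CPM.

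The rpp102 deletion, the only strain that lacks a member, had lost the rpp102 transcript. The level of rpp102 was 40 CPM, 51.9 CPM, 75.7 CPM and 44.2 CPM in the libraries of replicates 1 to 4, against 4296 CPM or more in wild type, so that the groups were far apart. On the log2 scale it fell by 6.74 ± 0.19 (SE), to 0.948% of the wild-type mean CPM, with an adjusted p of 6.4e-11 in limma and p = 0.00202 in the two-sided exact permutation test, the smallest that 4 against 8 libraries can give. The decimal point of the replicate-3 value lies 1 place further right where the other libraries of the strain are not used, and the difference was then -5.91.

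None of the other P protein genes was called higher or lower in the cells without rpp102. rpp101, which encodes the P1 protein closest to that of rpp102, stood at 2708 CPM, 2419 CPM, 3782 CPM and 2455 CPM, all within the wild-type range. Its log2 difference from wild type was -0.09 ± 0.18. The third P1 gene, rpp103, had a difference of -0.25 ± 0.21. The P2 genes gave -0.31 ± 0.16 for rpp201, -0.07 ± 0.16 for rpp202 and -0.12 ± 0.21 for rpp203. The anchor gene rpp0 lay at 4268 CPM, 4119 CPM, 6300 CPM and 3440 CPM, so 3 of its 4 libraries were below every wild-type library. Its log2 difference was -0.53 ± 0.19 with an adjusted p of 0.122, short of a call. A call required a log2 difference of at least 0.6 in size and a limma p of at most 0.005, the thresholds of the study. Thus 0 of the 6 remaining members were called, where 2.85% of all 5480 transcripts were called higher and 2.17% lower in this strain. Without the replicate-3 library of the deletion, which was the highest of the 4 for each of these members, rpp0 was called lower at -0.70.

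The makeup of the P1 pool shifted by the loss itself. The summed CPM of the P1 genes averaged 5266 in the rpp102 deletion and 11382 in wild type, with ranges of 4355 to 7442 and 8752 to 15047 that do not overlap. Within that sum rpp101 made up 54.5% and rpp103 44.5%, against 26.6% and 24.3% in wild type. The summed CPM of the P2 genes averaged 8806 in the rpp102 deletion and 9928 in wild type, with overlapping ranges.

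Among the partners of the stalk, a list of 18 genes for elongation, termination and recycling factors, rpl12 proteins and assembly factors, 17 were matched in the table and 0 were called in the rpp102 deletion. The smallest adjusted p-values were those of dom34, which encodes a factor that rescues stalled ribosomes, at 0.57 ± 0.17 with an adjusted p of 0.0757, and eft201, an eEF2 gene, at -0.38 ± 0.12 with an adjusted p of 0.0921. Of 74 other large-subunit genes 1 was called, rpl3002 at -0.90 ± 0.13 with an adjusted p of 0.00212. Of 55 small-subunit genes 2 were called, rps1401 at -1.86 ± 0.18 with an adjusted p of 2.1e-04 and rps2202 at -1.42 ± 0.15 with an adjusted p of 3.1e-04. These 3 genes were lower, and 0 genes of either list were called higher. Over all 5480 transcripts 2.17% were called lower and 2.85% higher in this strain.

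Over all 94 strains, 6 members were called in the lower direction alone, and rpp202 was called higher in all but 1 of its calls. Another member was called lower in 6 of the 17 strains where rpp202 was called higher. Leaving out rpp102 in its own deletion, 657 pairs of a member and a strain were tested. Of these 17 were called higher and 68 lower, in 33 strains, and in 61 strains no member was called. The lower calls numbered 42 with the wild type of well A1 alone, 23 with that of well A2 alone and 93 with replicate 4 left out of both groups, a choice made after seeing the data, and the higher calls 14, 15 and 15. All 17 higher calls were of rpp202. Over all transcripts and strains, 2.1096% of tests were called higher and 1.47% lower. rpp202 was called higher in 18.1% of strains, and the other 6 members in 0%.

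The anchor gene rpp0 was called lower in 10 strains. Its strain means ran from 3033 CPM in the rpl1801 deletion to 7648 CPM in the strain labelled pmp1, with a median of 5490 CPM, and it was below the wild-type mean on the log2 scale in 82 of 94 strains. The lower calls of the P1 genes numbered 2 for rpp101, 16 for rpp102 and 15 for rpp103. rpp101 was the least changed of the 6, with strain means of 1516 to 3639 CPM. Of the P2 genes, rpp201 and rpp203 were called lower in 12 strains each and rpp202 in 1. As shares of the strains tested, the lower calls came to 10.6% for rpp0, 17.2% for rpp102 and 12.8% each for rpp201 and rpp203. The medians over strains were low for these genes, -0.22 for rpp0, -0.16 for rpp101, -0.37 for rpp102 and rpp103, -0.29 for rpp201 and -0.34 for rpp203, while that of rpp202 was 0.06 and the median of all transcripts was 0.01. Because all strains share the same 8 wild-type libraries, these medians are not independent of one another.

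Across the 94 strain means, the 6 members other than rpp202 moved together. Pearson's r of their mean log2 CPM ran from 0.81 to 0.97 over the pairs, whereas the r of rpp202 with each of the 6 ran from -0.21 to 0.10. These correlations describe 94 strains, or 93 where rpp102 is involved, whose libraries share plates and a common scaling to CPM. The 5 genes outside the family most like the mean of the 7 members were rps1201 at r = 0.937, rpl2802 at 0.933, rps1402 at 0.926, rpl2101 at 0.925 and rpl2801 at 0.924, among 5014 genes measured in every strain. For rpp0 alone they were rpl501 at 0.969, rpl402 at 0.965 and rpl44 at 0.960. All 8 are genes of ribosomal proteins.

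**Figure D2:**
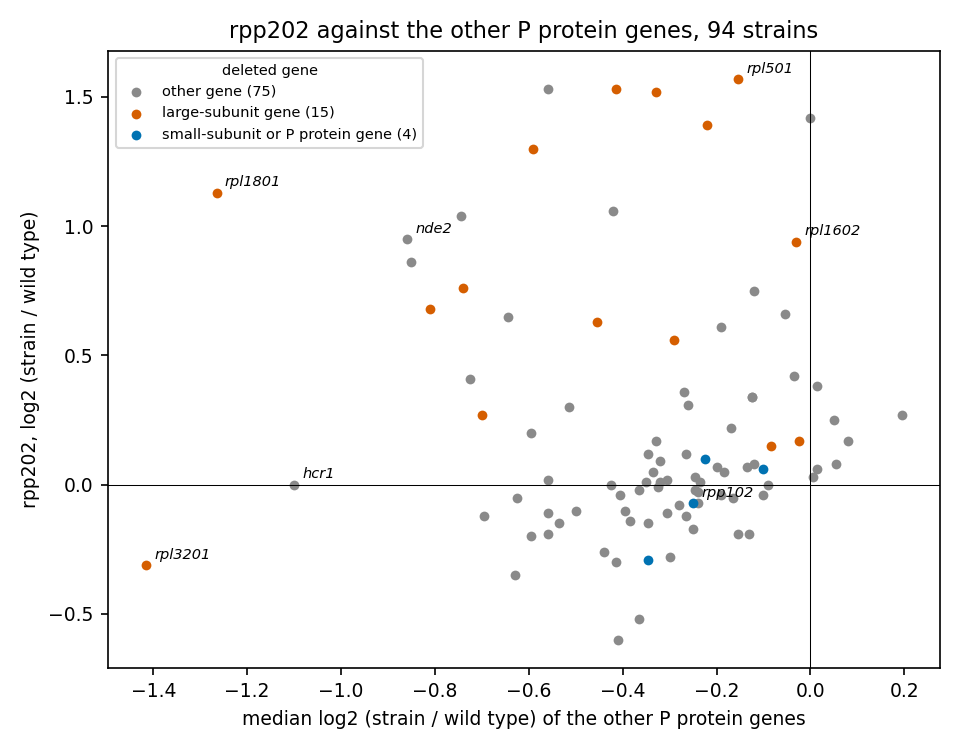
Each point is 1 of the 94 strains. The horizontal axis gives the median log2 ratio of the other P protein genes to wild type and the vertical axis that of rpp202. Points of the large-subunit gene deletions (orange) reach 1.57 for rpp202 in the rpl501 deletion, where the others lie near 0, and the rpl1801 deletion combines 1.13 for rpp202 with the second lowest median of the others.

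The highest level of rpp202 was found in the rpl501 deletion, which lacks 1 of the genes of the ribosomal protein uL18 that binds 5S ribosomal RNA. rpp202 measured 8169 CPM, 7543 CPM, 8269 CPM and 5405 CPM there, each above the highest wild-type library at 3027 CPM. It rose 2.97-fold, 1.57 ± 0.15 on the log2 scale, with an adjusted p of 3.8e-05 in limma. The other 6 members were not called in this strain, with log2 differences of -0.25 to 0.09, against 6.32% of transcripts called higher and 4.33% called lower. Of 73 other large-subunit genes 0 were called higher and 2 lower, and of 55 small-subunit genes likewise 0 and 2.

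Similar levels were seen in 3 more deletions of large-subunit genes. In the rpl901 deletion rpp202 measured 6492 CPM, 7698 CPM, 6965 CPM and 7099 CPM, a log2 difference of 1.53 ± 0.13. The last of these values would be 710 CPM where the decimal point is placed without the other libraries, and the difference would then be 0.70 and no longer called. In the rpl1601 deletion it measured 6663 CPM, 7094 CPM, 8111 CPM and 6322 CPM, a difference of 1.52 ± 0.12. In the rpl3703 deletion it measured 6242 CPM, 6505 CPM, 7825 CPM and 5244 CPM, a difference of 1.39 ± 0.13. All of these libraries were above every wild-type library and no other member was called in the 3 strains. Over all transcripts, 5.31% were called higher and 3.66% lower in the rpl901 deletion, 3.96% and 2.92% in the rpl1601 deletion, and 4.84% and 3.47% in the rpl3703 deletion.

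In the rpl3801 and rpl1801 deletions the rise of rpp202 came with lower levels of other members. rpp202 measured 6832 CPM, 6801 CPM, 5967 CPM and 4757 CPM in the rpl3801 deletion, where rpp0 and rpp201 were called lower along with 4.65% of transcripts. In the rpl1801 deletion, which lacks a gene of the ribosomal protein eL18, it measured 4165 CPM, 6872 CPM, 4930 CPM and 5822 CPM. Its log2 differences were 1.30 ± 0.14 and 1.13 ± 0.15. The other 6 members were all called lower in the rpl1801 deletion, where 9.66% of transcripts were called lower. The shares called higher, as rpp202 was, were 5.8% of transcripts in the rpl3801 deletion and 11.9% in the rpl1801 deletion. rpp0 had its lowest strain level there, at 2305 CPM, 3614 CPM, 2636 CPM and 3577 CPM, a difference of -1.10 ± 0.18. The differences of the P1 and remaining P2 genes ran from -0.63 ± 0.18 for rpp101 to -1.38 ± 0.24 for rpp103. With the replicate number as a block the call of rpp101 was lost, at -0.65 and a limma p of 0.011. It was also lost without replicate 1, 2 or 3 of the deletion, at -0.50, -0.67 and -0.60, and without each of 5 of the 8 wild-type libraries, at -0.58 to -0.63. Other ribosomal protein genes were lower too, 36 of 73 large-subunit and 31 of 55 small-subunit genes, with 1 called higher in each list.

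**Figure D3:**
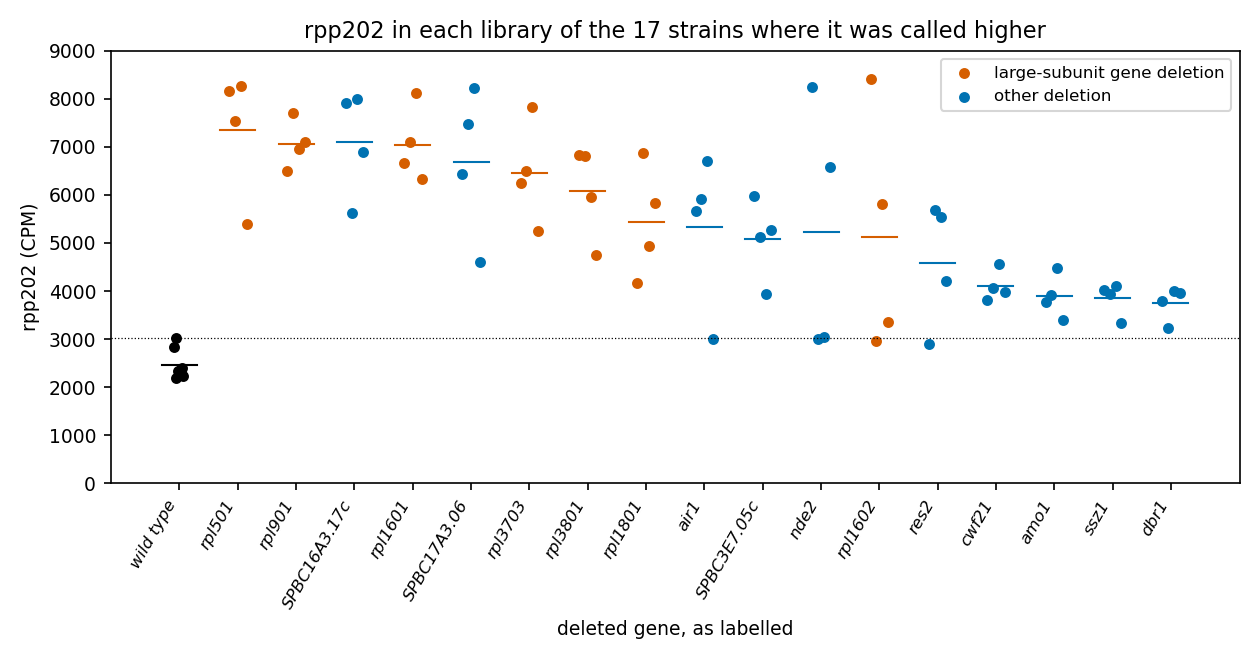
Level of rpp202 in CPM in each library of wild type (black) and of the 17 strains where it was called higher, with horizontal bars for means and a dotted line at the highest wild-type library, 3027 CPM. Orange points are deletions of large-subunit genes and blue points other deletions. In 13 of the 17 strains all 4 libraries lie above the dotted line.

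Of the 17 strains with more rpp202, 7 lack a large-subunit gene and 10 another gene. The share was 46.7% of the 15 large-subunit gene deletions and 12.7% of the other 79, a grouping made after the values were seen. Of all transcripts, 0.22% (rpl1602) to 11.9% (rpl1801) were called higher in these 7 strains. In the 10 others it was 0.22% (cwf21) to 8.66% (SPBC16A3.17c), and over all 94 strains 2.1096%. The share of all transcripts was not computed for each group. The transcript of the deleted gene itself was below all wild-type libraries in 7 of these 17 strains. The strain labelled rpl1602, with 0.22% of transcripts called higher, was the weakest of the large-subunit group. Its rpp202 values were 8406 CPM, 2956 CPM, 5809 CPM and 3358 CPM, the difference of 0.94 ± 0.24 had an adjusted p of 0.807, the call was lost without replicate 1 or 3, at 0.66 and 0.84, and rpl1602 itself was at 84.1% of its wild-type mean. Among the large-subunit deletions without a call, rpp202 had log2 differences of 0.76 for rpl902, 0.68 for rpl3602, 0.63 for rpl2802, 0.56 for rpl2101, 0.27 for rpl3202, 0.17 for rpl29, 0.15 for rpl39 and -0.31 for rpl3201. In the 3 small-subunit gene deletions the differences were 0.06 for rps2801, 0.10 for rps1002 and -0.29 for rps1802.

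Of the 10 other strains, SPBC16A3.17c and SPBC17A3.06 had the most rpp202. The strain labelled SPBC16A3.17c measured 7913 CPM, 5628 CPM, 7987 CPM and 6899 CPM, a log2 difference of 1.53 ± 0.14. The strain labelled SPBC17A3.06 measured 6433 CPM, 7466 CPM, 8218 CPM and 4601 CPM, a difference of 1.42 ± 0.16. In both strains no other member was called and the deleted gene was not below wild type. The shares of transcripts called higher and lower were 8.66% and 5.39% in the strain labelled SPBC16A3.17c and 1.88% and 2.46% in the strain labelled SPBC17A3.06. The remaining strains were the ssz1 deletion and those labelled air1, SPBC3E7.05c, nde2, res2, cwf21, amo1 and dbr1, with differences of 1.06 down to 0.61. In these strains 0.22% (cwf21) to 7.42% (ssz1) of transcripts were called higher. Their libraries did not always move together. The strain labelled air1, for a protein of nuclear RNA surveillance, held 5672 CPM, 5914 CPM, 6709 CPM and 2996 CPM, the last within the wild-type range. The strain labelled nde2, for a mitochondrial NADH dehydrogenase, held 8248 CPM, 3009 CPM, 3043 CPM and 6587 CPM, and with the replicate number as a block its call was lost, at 0.92 and a limma p of 0.012. Without replicate 1 or 4 it was lost as well, at 0.68 and 0.79. Small rises lay close to the threshold, although all 4 libraries of the ssz1 deletion and of the strains labelled amo1 and dbr1 were above every wild-type library. The call in the ssz1 deletion, at 0.65, held in all 23 alternatives. The strain labelled amo1 gave 0.59 without replicate 3 and the strain labelled dbr1 0.58 and 0.59 without replicate 3 or 4, all below the threshold of 0.6. In the latter strain the same held without the replicate-2 library of wild type labelled wt2 (0.59) or either wild-type library of replicate 4.

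The 3′ end of rpp202 overlaps a convergent gene. In the table's coordinates (build ASM294v2) rpp202 lies on chromosome II from 2127990 to 2128518 on the minus strand, and SPBC23G7.14 on the plus strand shares 143 of those bases. SPBC23G7.14 had 12.4 to 22.4 CPM in wild type and was not called in any of the 17 strains, with log2 differences of -0.20 to 0.44. Whether the counting used the strand is not given in the sources used here, and the wild-type means were 2456 CPM for rpp202 and 16.1 CPM for its neighbour. The genes that overlap rpp0, rpp102 and rpp203 had wild-type means of 30.6 CPM or less.

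Deletions of ribosomal protein genes as a class were then set against all other deletions, a comparison of strain means that does not use the wild type. rpp202 was higher in the 19 ribosomal protein gene deletions by 0.51 ± 0.11 on the log2 scale, with an adjusted p of 4.7e-04 in limma over 5021 transcripts. Its log2 CPM ran from 10.95 to 12.82 with a median of 11.88 in these strains and from 10.65 to 12.78 with a median of 11.28 in the other 75. The groups overlapped widely, and 2 of the 19 strains were above every other strain. Within replicate numbers 1 to 4 taken alone, the difference was 0.41, 0.47, 0.63 and 0.51. When the 15 large-subunit deletions were set against all others, a grouping made after the values were seen, it was 0.70.

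rpp0 was lower by the same comparison, at -0.16 ± 0.07 with an adjusted p of 0.0417, a call that was lost in 9 of 18 alternatives, among them 3 of the 4 replicate numbers taken alone and leaving out replicate 1 or 4. The differences of the remaining members were -0.04 ± 0.05 for rpp101, -0.10 ± 0.07 for rpp102, -0.13 ± 0.08 for rpp103, -0.16 ± 0.07 for rpp201 and -0.05 ± 0.08 for rpp203, none with an adjusted p under 0.05. rpp201 passed that threshold without replicate 3, at -0.17, and with the replicate number as a block over all libraries, at -0.16 with an adjusted p of 0.019. Thus 1 of the 7 members was called higher and 1 lower, where 21.8% of all transcripts were called higher and 20.7% lower, so the number of members called was not above the background. Of 17 stalk partners 3 were called higher and 3 lower. The higher ones were dom34 at 0.22 ± 0.05, hbs1, its GTPase partner, at 0.11 ± 0.04 and gcn1 at 0.08 ± 0.04, and the lower ones were the eEF1A gene tef101 at -0.28 ± 0.10 and the eEF2 genes eft201 at -0.24 ± 0.07 and eft202 at -0.16 ± 0.07.

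Strains in which many members were lower at once were few. In 7 strains 4 or more of the 7 members were called lower. The lowest levels were those of the strain labelled rpl3201, a paralogue of eL32. There rpp203 measured 786 CPM, 857 CPM, 907 CPM and 989 CPM, a log2 difference of -1.63 ± 0.16 with an adjusted p of 1.8e-05. rpp103 measured 889 CPM, 876 CPM, 919 CPM and 1087 CPM, a difference of -1.53 ± 0.17. rpp102, rpp201 and rpp101 also had their lowest strain levels here, at -1.49 ± 0.15, -1.34 ± 0.13 and -0.98 ± 0.15. Every library of the 6 called members was below every wild-type library, a separation whose share over all transcripts was not counted. The CPM values of a library of this strain summed to 742382 to 797715, against 944943 to 1223029 in wild type. What part this had in the separation was not tested. In total 6 of 7 members were called lower against 4.58% of transcripts, and rpp202 was not called, at -0.31 ± 0.11, although its 4 libraries were also below every wild-type library. rpl3201 itself was at 84.8% of its wild-type mean in this strain.

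In the strain labelled hcr1, for the initiation factor subunit eIF3j, 5 members were called lower against 4.59% of transcripts. rpp203 measured 719 to 1133 CPM in the 4 libraries, all below every wild-type library, a difference of -1.52 ± 0.18. rpp102 lay at -1.22 ± 0.18, rpp103 at -1.17 ± 0.19, rpp201 at -1.03 ± 0.17 and rpp0 at -0.90 ± 0.17. rpp101 was not called at -0.39 ± 0.20, and rpp202 did not differ in direction, at 0.00 ± 0.17.

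The strains labelled nde2 and res2 had 5 members called lower each, against 3.62% and 3.52% of transcripts, and in both rpp202 was called higher. In the strain labelled res2, for a subunit of the MBF transcription factor, rpp103 measured 840 CPM, 1350 CPM, 1757 CPM and 1919 CPM, a difference of -0.96 ± 0.23. All 4 values were below every wild-type library, whereas rpp202 had 2897 CPM, 5687 CPM, 5544 CPM and 4213 CPM. With the replicate number as a block rpp203 was just short of a call in that strain, at -0.82 and a limma p just above 0.005. It was not called without replicate 1 or 2 either, at -0.56 and -0.84. In the strain labelled nde2 the call of rpp0, at -0.68 ± 0.17, was lost without replicate 2 or 3, at -0.60 and -0.63. The strain labelled cdt2, for an adaptor of a ubiquitin ligase, had 5 members called lower against 2.16% of transcripts, from -0.70 ± 0.16 for rpp0 to -0.91 ± 0.17 for rpp102. The strain labelled SPBC3E7.05c had 4 members called lower against 3.08% of transcripts, and none of these 4 calls, of rpp0, rpp102, rpp103 and rpp201, held with the replicate number as a block. Nor did any hold without replicate 3, at -0.49 for rpp0, -0.52 for rpp102, -0.64 for rpp103 and -0.56 for rpp201. The calls of rpp0 and rpp102 were also lost without single wild-type libraries, at -0.66 to -0.75. Its rpp202 values of 5983 CPM, 5127 CPM, 3945 CPM and 5277 CPM gave a difference of 1.04 ± 0.15. In these 7 strains other ribosomal protein genes were lower as well, from 18 of 74 large-subunit genes in the strain labelled cdt2 to 36 of 73 in the strain labelled rpl3201 and in the rpl1801 deletion.

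**Figure D4:**
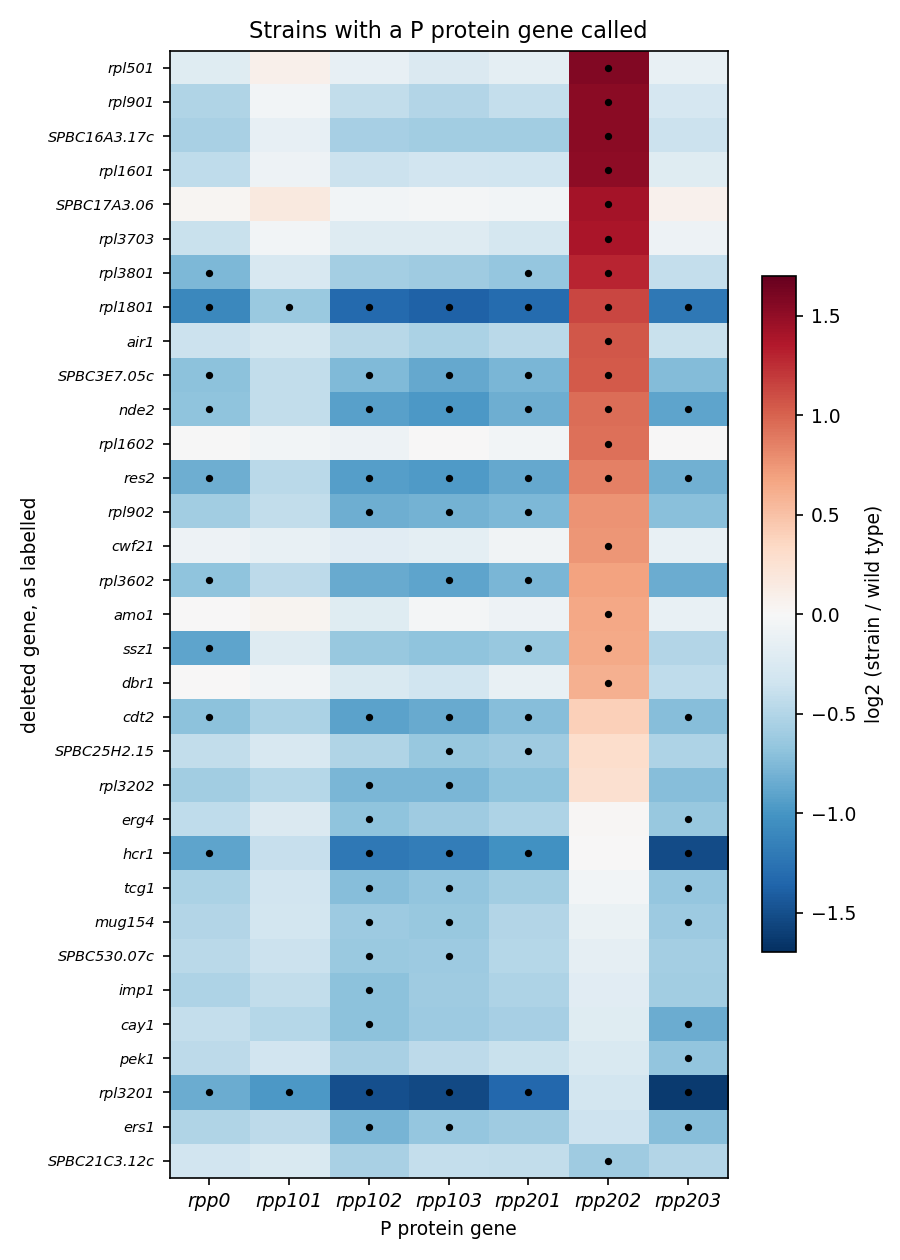
Log2 ratio to wild type of each P protein gene in the 33 strains with at least 1 member called, ordered by rpp202. Red is higher and blue lower, and dots mark calls. The column of rpp202 is red at the top while the other 6 columns are mostly pale or blue, with the darkest blue in rpl3201, hcr1 and rpl1801.

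The single lower call of rpp202 was in the strain labelled SPBC21C3.12c, where 0.128% of transcripts were called lower. It measured 1403 CPM, 1675 CPM, 1726 CPM and 1636 CPM, all below every wild-type library, a difference of -0.60 ± 0.12 with an adjusted p of 0.326. Without replicate 1 the difference was -0.54, and without 1 of the replicate-3 wild-type libraries -0.56 or -0.57, short of the threshold. The strain labelled pmp1, for a phosphatase of MAP kinase, had the highest strain levels of the other 6 members, none called. rpp0 measured 6790 CPM, 7251 CPM, 7871 CPM and 8678 CPM there, a difference of 0.25 ± 0.16, and 2 of the 4 libraries exceeded every wild-type library.

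As a result the makeup of the P2 transcripts varied between strains far more than that of the P1 transcripts. In wild type rpp201 made up 47.4% of the summed P2 CPM, rpp203 27.7% and rpp202 24.9%, with a library range of 22.6 to 27.8% for rpp202. The share of rpp202 reached 63.6% in the rpl1801 deletion, with a library range of 54.2 to 68.4%, and 52.2% in the rpl501 deletion. Its strain mean was above the highest wild-type library in 65 of 94 strains. Among the P1 genes, leaving out the rpp102 deletion, the share of rpp102 ran from 40.4 to 49.9% over 93 strains and that of rpp101 from 26.7 to 38.8%. The strain mean of the rpp101 share exceeded the share in the highest wild-type library in 87 strains. All strains were set against the same 8 wild-type libraries of wells A1 and A2, so the strains in these counts are not independent of one another. The sums of P1 and of P2 were lowest in the strain labelled rpl3201, at 4421 and 4705 CPM, and the sum of P2 was highest in the rpl501 deletion, at 14418 CPM.

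**Figure D5:**
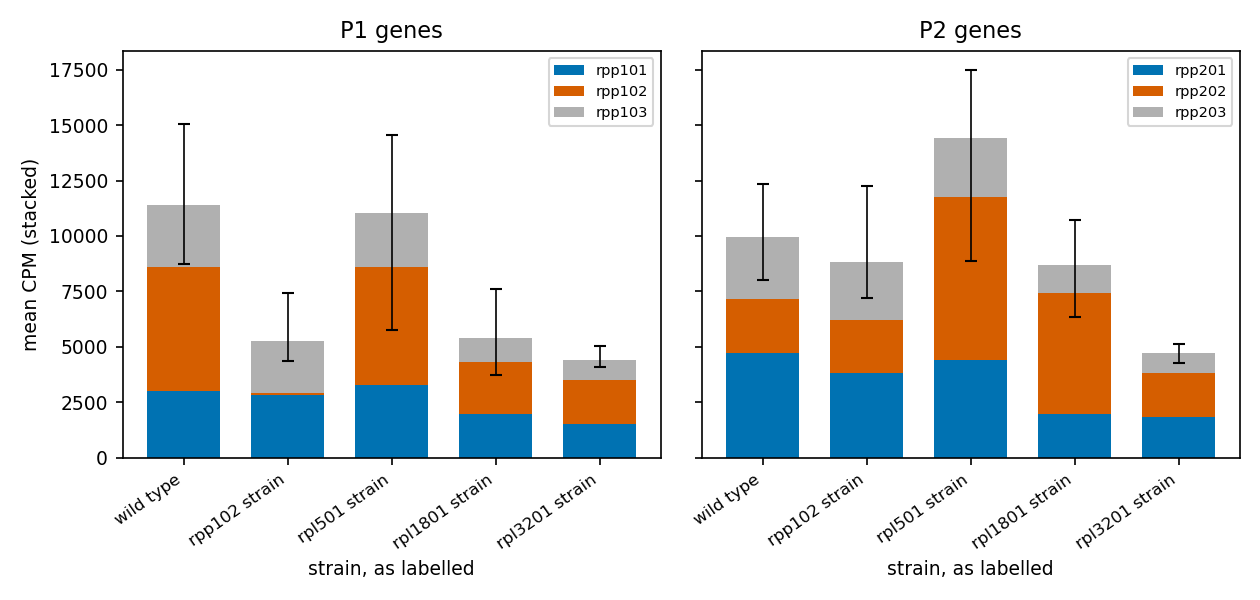
Mean CPM of the P1 genes (left) and the P2 genes (right), stacked by gene, in wild type (8 libraries) and 4 strains (4 libraries each). Error bars give the lowest and highest library of the sum. The P2 sum averages 14418 CPM in the rpl501 deletion and 9928 CPM in wild type, and rpp202 is the widest band of P2 in the rpl501 and rpl1801 deletions.

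The background between groups without a deletion was measured in the wild type. Between the 4 wild-type libraries of well A1 and the 4 of well A2, 0 of 7 members were called by limma, 0 had an unadjusted p under 0.05, and 0.164% of all transcripts were called. The log2 differences of the members ran from 0.05 for rpp202 to 0.17 for rpp203, with well A1 above well A2 for all 7. With the replicate number as a block, added after that fit was seen, the differences were 0.05 to 0.15 with SEs of 0.12 to 0.13, again 0 members were called and 0 had an unadjusted p under 0.05, and 0.365% of transcripts were called.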

How the data were processed

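RNA was measured by 3′ mRNA sequencing (75-base single reads) in 94 knockout strains and wild type. The authors processed reads on build ASM294v2 with a pipeline whose tools include STAR 2.6.1b, HTSeq 0.9.0 and Subread 1.6.2 (which one counted reads is not given in the sources used here), and deposited CPM, but 78.8% of the deposited values lacked their decimal point. Points were restored so that each value was a whole number of reads. For 9.81% of values more than 1 placing did so, and the choice was made from the gene's other libraries. On simulated libraries 0.0241% of all 348432 values were placed wrongly, a share that includes values with no choice to make. The simulated libraries of a strain varied around a shared mean, so the check says little about outlying libraries.

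Values just above 1 CPM or higher were kept, as in the study, and a transcript needed 3 of 4 and 6 of 8 values. Log2 CPM was fitted with limma 3.58.1 in R 4.3.3, strain by strain, without imputing values. Calls needed a log2 difference of 0.6 and p of at most 0.005. Adjusted p is Benjamini-Hochberg over all transcripts. Ribosomal protein gene deletions were compared with other deletions over strain means at an adjusted p under 0.05. The restoring and the fits were tested on simulated data. CPM is a relative level within each library, so amounts per cell cannot be read from it.

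Libraries with the same replicate number deviated together (r of 0.403 to 0.716 over 4593 transcripts, against -0.529 to 0.259 for different numbers), so the number was tried as a block. Promoters, coding ends and protein identities came from RefSeq, build ASM294v3. Named were all 7 genes, the highest and lowest called strain of each, strains with 4 or more members called in 1 direction, called list genes of the rpp102 deletion and the genes most alike in pattern. The other strains with rpp202 called higher, the strain labelled pmp1 and the partner genes given with values were named after their values were seen. The members and lists were chosen with earlier results of these data known.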

Additional observations from a re-analysis of the deposited data

Results flagged for a closer look

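In 14 of 154 sets, each of 1 gene in the libraries of 1 strain or of wild type, 1 library stood far from the others. About 5% of independent sets would by chance. The genes share the libraries of a strain and move together, so the sets are not independent and no excess can be read from the count. The value given is the gap to the nearest library divided by the whole range. In the rpp102 deletion the replicate-3 library was the highest for rpp103 (0.847, 3584 against 2141 CPM), rpp202 (0.834, 3284 against 2162 CPM) and rpp203 (0.835, 4037 against 2309 CPM). In the strain labelled cwf21 the replicate-3 library was the highest for rpp101 (0.923), rpp102 (0.927), rpp103 (0.939), rpp201 (0.843) and rpp203 (0.831). Replicate 3 was also the highest for rpp101 in the rpl1601 deletion (0.872, 3318 against 2696 CPM) and for rpp102 in the strain labelled rpl1602 (0.879, 7111 against 4815 CPM).

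Over all 94 strains the replicate-3 libraries lay 0.13 to 0.31 above the mean of all knockout libraries on the log2 scale for the 7 genes, and the replicate-3 wild-type libraries 0.19 to 0.41 above the wild-type mean. The part of this in the values above was not tested. Replicate 1 was the lowest in the strain labelled hcr1 for rpp102 (0.856, 1728 against 2572 CPM) and rpp202 (0.895, 1596 against 2743 CPM). It was also the lowest in the strain labelled res2 for rpp0 (0.86, 2687 against 3866 CPM) and rpp101 (0.891, 1453 against 2417 CPM).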

How the results depend on the processing

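Over the alternatives, 134 values that answer a comparison were taken as unchanged and 14 as moved. Most of these values are counts, and a count was taken as unchanged within a fixed ratio of the main count. The 63 to 101 calls given below, against 85, were therefore not taken as moved. With the wild type of well A1 alone 56 pairs of a member and a strain were called, 42 of them lower, and with well A2 alone 38, of which 23 lower. Leaving out single libraries gave 63 to 101 calls. No other P protein gene was called in the rpp102 deletion except without knockout replicate 3, so that the count ran from 0 to 1. The number of members called between ribosomal protein gene deletions and other deletions, 2, ran from 1 to 3 when single replicates were left out. It was 1 without a filter, within replicate numbers 2, 3 and 4, without strains whose deleted gene was not below wild type, and without the rpp102 deletion. It was 0 when a difference of 0.6 was also required. The cause was not tested.

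With the replicate number as a block 79 pairs were called, 16 higher and 63 lower, against 68 without the block in the same libraries. The wild-type numbers are uneven, with number 1 on 1 library and number 2 on 3, and both fits leave out the 2 libraries of well A2 that carry number 2. Of 69 named values 61 kept their call under the block, 7 lost it and 1 turned. Leaving replicate 4 out of both groups, chosen after seeing the data, gave 108 calls, 15 higher and 93 lower. The comparison of large-subunit deletions with all others and the block in the comparison of wells were also chosen after seeing the data.

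Directions turned only for values near 0. rpp202 in the strain labelled hcr1 was 0.02 with well A2 alone, 0.01 with the replicate block and -0.10 to 0.20 without single libraries, -0.08, 0.03 and 0.04 among them. In the rpp102 deletion, leaving out single libraries gave -0.34 to 0.00 for rpp203 and -0.24 to 0.01 for rpp202. Between ribosomal protein gene deletions and the others, rpp203 was 0.00 within replicate numbers 2 and 4 and 0.00 without strains whose deleted gene was not below wild type, where rpp101 was 0.01.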

Other observations

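The genes whose strain means were most like those of rpp202 were looked for after its values had been seen. Among 5014 genes they were nhp2 at r = 0.793 over 94 strains, ctr5 at 0.767, snu13 at 0.765, cms1 at 0.755, the non-coding RNAs SPNCRNA.1285 and SPNCRNA.1083 at 0.744 and 0.742, utp3 at 0.741 and SPNCRNA.780 at 0.739. nhp2 and snu13 encode proteins of small nucleolar ribonucleoproteins and utp3 a factor of small-subunit assembly, while ctr5 encodes a copper transporter. None of them encodes a ribosomal protein. The strains share replicate sets and the scaling to CPM, and no test was made.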
